A study of Arabidopsis thaliana with 2 samples.

Results

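Single-exon protein-coding genes are genes in which no annotated model contains an intron. Of the 27444 protein-coding genes on chromosomes 1 to 5 of TAIR10, 5199 had 1 exon in every model, and 3425 of these were 800 bp or longer. Members were required to have at least 10 covered CpHpG cytosines (H is A, C or T) with 4 or more reads each on average in the Col-0 library, which left 3358 genes and removed 67. A unique place in the Ler-0 sequence was found for 3245 of them, and 3163 had enough reads there, whereas 113 had no such place and 82 had too few reads. The members had a median length of 1371 bp (quartiles 1069 and 1862 bp), a median coding length of 1029 bp and a median of 83 CpHpG cytosines. A single model was annotated for 3245 members, and 633 overlapped another annotated gene, so that calls on the shared bases belong to both genes.

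Both libraries were whole-genome bisulfite libraries of *ibm1-1* homozygotes in generation 1, 1 from the Col-0 ecotype and 1 from the Ler-0 ecotype, each made from 150 ng of DNA of rosettes aged 3 weeks at 21°C in days with 16 h of light. The mutation is therefore shared by both groups, and WT plants were not analysed here, so that each value is a level in the mutant and not a gain. The Ler-0 line descends from 4 backcrosses of the Col-0 mutant, and DNA from 250001 to 8750000 of chromosome 3 gave reads at 8.26% of 3378 cytosines that only Ler-0 has, against 84.8% of 51000 elsewhere. With 1 library per ecotype, no difference between the ecotypes has a replicate check. The Col-0 library held a mean of 8.63 calls per cytosine and the Ler-0 library 6.58, and the chloroplast, taken as unmethylated, gave 1.34% and 1.39% methylated calls. Over the members, the median depth was 9.14 and 7.53 reads per CpHpG cytosine and the median number of CpHpG calls was 758 and 635 per gene. Intervals are 95% Wilson intervals unless stated, and they cover counting error only. Those of methylation levels take each call as independent, although 1 read can give calls at several cytosines, so they may be too narrow.

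In plants, CpG methylation is copied at replication by MET1 and is common in the bodies of genes that are expressed in many tissues. CpHpG methylation is maintained by CMT3 at chromatin carrying H3K9me2, in a loop that is typical of transposons. IBM1 is a histone demethylase that removes H3K9 methylation from genes, and without it CpHpG methylation accumulates in the bodies of genes that already carry CpG methylation. A CpCpG site holds both contexts, since its internal cytosine is in the CpG context and its external cytosine in the CpHpG context. Genes without introns are often members of large families in plants, such as the F-box proteins, which select targets for ubiquitination, and the pentatricopeptide repeat (PPR) proteins, which bind RNA in organelles.

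Coding windows of 120 bases are shown for 6 genes that stand for the patterns described here, each window being the one with the most CpHpG cytosines in the coding sequence of that gene. Capitals mark CpHpG cytosines, or the G opposite one on the other strand, on the coding strand from 5′ to 3′. *AGP6* (AT5G14380, chr5:4636202-4636321, minus strand) and *UGT73C1* (AT2G36750, chr2:15410720-15410839, minus strand) differed between the libraries. AT2G04860 (chr2:1707548-1707667, minus strand) and AT1G74350 (chr1:27950252-27950371, minus strand) were methylated in both at low CpHpH methylation. AT2G41590 (chr2:17344124-17344243, plus strand) is a retrotransposon-like gene, and AT5G15010 (chr5:4858790-4858909, plus strand) had CpG methylation with little CpHpG methylation. The coordinates are those of TAIR10.
AGP6: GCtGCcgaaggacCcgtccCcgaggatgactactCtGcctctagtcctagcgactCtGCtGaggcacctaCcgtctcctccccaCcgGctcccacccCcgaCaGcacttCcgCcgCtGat
UGT73C1: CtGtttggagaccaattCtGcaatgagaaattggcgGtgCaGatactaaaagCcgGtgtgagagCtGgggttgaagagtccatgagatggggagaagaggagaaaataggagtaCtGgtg
AT2G04860: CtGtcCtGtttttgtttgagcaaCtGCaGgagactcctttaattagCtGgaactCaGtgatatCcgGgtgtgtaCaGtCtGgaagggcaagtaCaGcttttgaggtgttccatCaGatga
AT1G74350: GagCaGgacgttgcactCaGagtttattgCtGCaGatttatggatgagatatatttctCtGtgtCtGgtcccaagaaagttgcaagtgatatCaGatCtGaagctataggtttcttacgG
AT2G41590: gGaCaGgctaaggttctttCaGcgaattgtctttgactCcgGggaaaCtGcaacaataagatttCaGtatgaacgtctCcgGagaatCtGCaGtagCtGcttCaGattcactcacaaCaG
AT5G15010: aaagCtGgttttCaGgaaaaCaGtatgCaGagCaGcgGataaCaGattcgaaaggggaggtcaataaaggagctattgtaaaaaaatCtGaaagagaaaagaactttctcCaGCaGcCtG

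Among the bases known in Ler-0, 0 differed from Col-0 in 5 of the windows and 1 differed in AT1G74350. In the *AGP6* window, Col-0 had 3.35% CpHpG methylation (6 of 179 calls, 1.55–7.12%) and Ler-0 48.4% (252 of 521 calls, 44.1–52.7%), and CpG methylation was 1.70% and 96.4%. In the *UGT73C1* window the order was the opposite, with 53.3% for Col-0 (178 of 334 calls, 47.9–58.6%) and 2.40% for Ler-0 (3 of 125 calls, 0.820–6.82%). CpG methylation there was 96.8% for Col-0, while 0 of 44 calls were methylated for Ler-0 (0–8.03%). The AT2G04860 window had 53.5% and 53.2% CpHpG methylation, the AT1G74350 window 46.5% and 67.2%, and the AT2G41590 window 72.2% and 75.6%. The AT5G15010 window had 0.617% and 2.80% CpHpG methylation. Its 4 CpG cytosines were methylated in 1 of 66 calls in Col-0 and in 41 of 45 calls in Ler-0, so that the CpHpG cytosines of this window were nearly free of methylation next to both states.

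Most single-exon genes carried little methylation in any context. The median CpG methylation of the members was 1.70% in Col-0 (quartiles 1.18% and 8.58%) and 1.65% in Ler-0 (1.15% and 5.57%). The median CpHpG methylation was 2.13% (1.66% and 2.85%) and 2.16% (1.61% and 3.00%), and the median CpHpH methylation 1.04% and 1.05%. These medians lie close to the share of methylated calls in the chloroplast. CpG methylation of 10% or more was measured in 782 members in Col-0 (23.3%, 21.9–24.7%) and in 637 in Ler-0 (20.1%, 18.8–21.6%), where 47.2% and 45.5% of all protein-coding genes with the same limits were at this level. CpHpG methylation of 20% or more was measured in 166 members in Col-0 (4.94%, 4.26–5.73%) and in 151 in Ler-0 (4.77%, 4.08–5.57%), against 10.3% and 14.2% of all genes. A level of 50% or more was reached by 37 and 27 members, or 1.10% and 0.854% of them, against 0.69% and 1.29% of all genes. In Col-0, 88.4% of the members were under 5% CpHpG methylation, and in Ler-0 87.9%. CpHpH methylation of 10% or more was measured in 63 members in Col-0 (1.88%) and in 26 in Ler-0 (0.822%), against 1.44% and 0.859% of all genes.

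**Figure D1:**
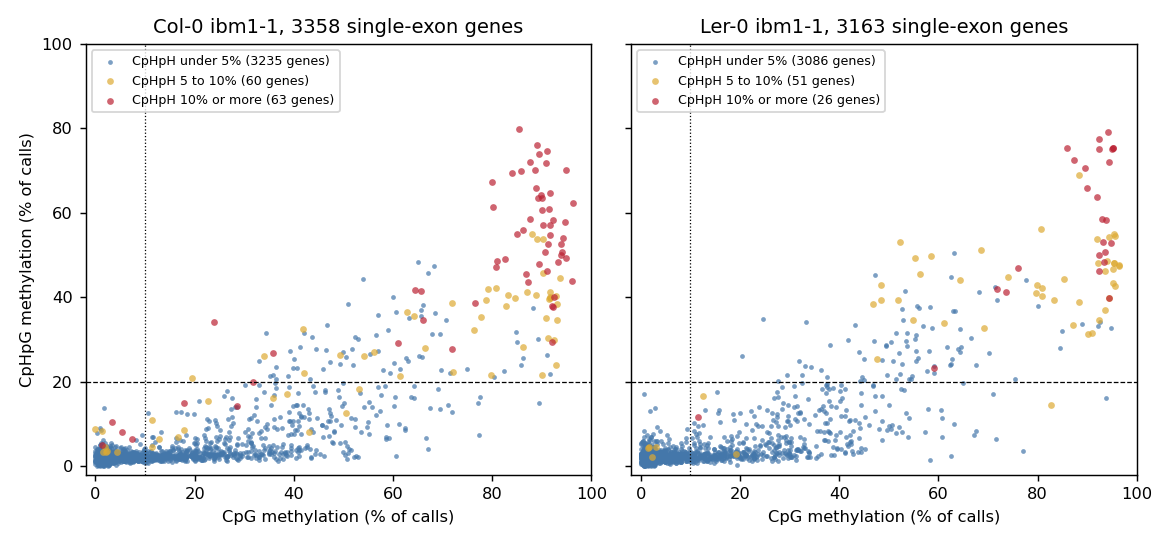
CpHpG methylation of each single-exon gene (percent of calls, vertical axis) against its CpG methylation (percent of calls, horizontal axis) in the Col-0 and Ler-0 *ibm1-1* libraries, coloured by CpHpH methylation, with lines at 10% CpG and 20% CpHpG. No gene is at 20% CpHpG with less than 10% CpG, and the genes with 10% CpHpH or more (63 and 26) lie mostly in the upper right corner.

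The share of members with 20% CpHpG methylation rose with the CpG class. No member with less than 10% CpG methylation reached it, of 2576 in Col-0 (0–0.149%) and 2526 in Ler-0 (0–0.152%). From 10 to 20% CpG, Col-0 had 1 of 233 members at this level and Ler-0 had 0 of 201, and from 20 to 30% CpG the numbers were 1 of 164 and 4 of 135. From 30 to 40% CpG the share was 9.57% and 8.99%, and from 40 to 50% it was 20% and 27.4%. At 50% CpG or more it was 72.1% in Col-0 (137 of 190 members, 65.3–78.0%) and 81.3% in Ler-0 (122 of 150, 74.3–86.8%). The median CpHpG level of the members in this highest class was 31.3% and 34.1%. Among the members with at least 10% CpG methylation, CpHpG methylation of 20% or more was measured in 21.2% in Col-0 (18.5–24.2%) and in 23.7% in Ler-0 (20.6–27.2%), where 21.8% and 31.1% of all genes with that CpG level had it. Of the same members, 412 of 782 (52.7%, Col-0) and 293 of 637 (46.0%, Ler-0) were under 5% CpHpG methylation, against 43.6% and 32.0% of all genes with that CpG level.

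The number of CpCpG sites with a methylated internal cytosine gave a similar order. An internal cytosine was called methylated at 50% or more, and for this count only the internal cytosine needed 5 reads. For the patterns of both cytosines given below, an external one was called at 25% or more, and each of the pair needed 5 reads. In the 2385 members with 0 such sites in Col-0, 1 reached 20% CpHpG methylation, and in the equal number with 0 such sites in Ler-0 none did (0–0.161%). With 1 site the share was 1.82% and 2.50%, with 2 to 4 sites 4.91% and 7.84%, with 5 to 9 sites 26.3% and 26.2%, and with 10 or more sites 46.2% (39.1–53.4%) and 59.9% (51.5–67.7%). The order was not particular to the members. All genes of 5 or more exons had 0.0723% and 0.319% with 0 sites. They had 13.3% and 25.6% with 5 to 9 sites, and 48.6% and 69.7% with 10 or more. The median CpG level of the members rose along these classes as well, from 1.37% to 55.6% in Col-0 and from 1.38% to 56.3% in Ler-0. The sites and the CpG level therefore cannot be told apart here. Median depth rose too, from 8.74 to 13.3 reads in Col-0 and from 7.25 to 12.1 in Ler-0, and its part was not tested.

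Read depth moved with these levels. Members at 20% CpHpG methylation or more were read 14.4 times per CpHpG cytosine (median) in Col-0 and 12.5 times in Ler-0, and members under 5% had 8.95 and 7.36. Of members with 14 reads or more, 70.6% of 136 (Col-0) and 88.2% of 68 (Ler-0) were at 20% CpHpG methylation, against 0.746% of 1206 and 2.56% of 897 at 8 to 10 reads. In the lowest class, of 4 to 6 reads, it was 3.06% of 196 and 0 of 590. Over all genes the shares were 83.5% and 97.5% at 14 reads or more, and 2.85% and 15.3% at 8 to 10 reads. CpG methylation of 10% or more was measured in 91.9% and 97.1% of the members with 14 reads or more, against 96.9% and 99.4% of all genes. The part of depth in the results was not tested.

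The members with 20% CpHpG methylation were divided by CpHpH methylation, which is common in transposons and rare in gene bodies, with limits of 5% and 10% in a continuous range. CpHpH methylation was under 5% in 68 of the 166 members in Col-0 and in 82 of the 151 in Ler-0, which is 2.03% and 2.59% of the members, against 7.48% and 10.9% of all genes. It was from 5 to 10% in 42 and 44 members. It was 10% or more in 56 and 25, which is 1.67% and 0.790% of the members, against 1.28% and 0.837% of all genes. Words used for transposon proteins, with ribonuclease H among them, were listed after the names had been read. Product names with such words were carried by 14 of these 56 members (Col-0) and by 10 of these 25 (Ler-0), or 25% and 40%. All genes called this way gave 31 of 308 and 23 of 188. Such names were carried by 0 of the 68 (0–5.35%) and 0 of the 82 (0–4.48%) members with CpHpH under 5%, where all genes called this way had 0.778% and 0.408%. Windows of 500 kb with less than 30% of their bases in protein-coding genes held 103 members, 26 of which were among the 166 (15.7%), against 14.6% of all genes with 20% CpHpG methylation. In Ler-0 it was 14 of the 151 (9.27%) against 9.51%.

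Along the gene, the 670 members in Col-0 with at least 10% CpG and under 5% CpHpH methylation had little methylation at the start. Their CpG level was 6.51% in the first of 10 equal parts, 39.7% in the fifth, 54.9% in the seventh and 21.2% in the last. CpHpG methylation followed the same course at a lower level, with 4.28%, 10.9%, 15.0% and 5.54%. In Ler-0, the 564 members of this kind had 4.28%, 39.7%, 55.4% and 21.4% CpG methylation and 3.74%, 14.6%, 19.1% and 7.46% CpHpG methylation at the same places. The 56 members with 20% CpHpG methylation and at least 10% CpHpH methylation had a flat profile, from 80.8% to 89.6% CpG and from 51.3% to 62.1% CpHpG methylation in Col-0.

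**Figure D2:**
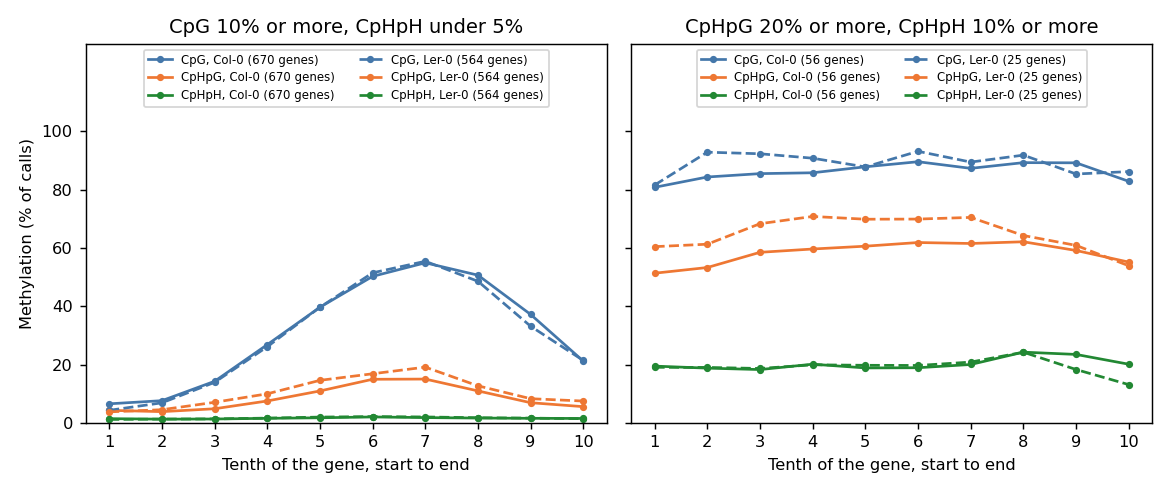
Methylation (percent of pooled calls) in 10 equal parts of single-exon genes from start to end, with Col-0 as solid and Ler-0 as dashed lines, for members with 10% CpG or more and CpHpH under 5% (left) and members with 20% CpHpG or more and CpHpH of 10% or more (right). On the left CpG and CpHpG peak together in the seventh part, at 54.9% and 15.0% in Col-0 and 55.4% and 19.1% in Ler-0, while on the right all 3 contexts stay high from end to end.

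Within CpHpG, the external cytosine of CpCpG was the least methylated at low and at high CpHpH methylation. In the 68 members with low CpHpH methylation in Col-0, the level was 32.6% at CpApG, 30.3% at CpTpG and 20.9% at CpCpG, and in the 82 in Ler-0 it was 33.2%, 30.3% and 19.8%. In the members with 20% CpHpG methylation and at least 10% CpHpH methylation, it was 63.0%, 61.0% and 46.1% in Col-0 and 69.8%, 69.3% and 46.3% in Ler-0. The intervals of CpCpG do not reach those of the other trinucleotides in any of these groups.

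Of the 60595 CpCpG sites of the members with enough reads in Col-0, 90.2% were unmethylated, 6.25% were CpmCpG (internal cytosine only), 3.12% were mCpmCpG (both) and 0.401% were mCpCpG (external only). Of 52129 sites in Ler-0, the shares were 91.8%, 5.30%, 2.47% and 0.401%. Once the internal cytosine was methylated, the external one was methylated too at 21.2% of sites for Col-0 and 24.1% for Ler-0 (22.6–25.7%) in members with at least 10% CpG and under 5% CpHpH methylation. This share was 50.3% (46.8–53.8%) and 48.1% (44.7–51.5%) in members that also had 20% CpHpG methylation, a value that the external cytosines enter. It was 80.1% (77.3–82.6%) and 77.3% (72.3–81.7%) in members with 20% CpHpG methylation and at least 10% CpHpH methylation. The external cytosines enter the choice of this group as well.

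The 6 members with the highest CpHpG methylation in the lower of both libraries at CpHpH under 5% were 3 tetratricopeptide repeat (TPR)-like genes, 2 receptor-like kinase genes and 1 intron maturase gene. AT2G04860, a TPR-like gene at chr2:1706787-1708926 on the minus strand, had 48.3% CpHpG methylation in Col-0 (46.3–50.4%, 2344 calls) and 37.7% in Ler-0 (35.6–39.9%, 1929 calls). Of its CpCpG sites with enough reads, 9 of 13 (Col-0) and 4 of 10 (Ler-0) were mCpmCpG. AT1G74350, whose product belongs to the intron maturases that help group II introns to splice, had 36.5% (34.8–38.3%) and 50.6% (48.7–52.6%), and it overlaps another annotated gene. AT4G39110, a malectin receptor-like kinase gene at chr4:18221993-18225238, had 35.1% (33.9–36.2%) and 41.3% over the highest number of calls in this list, 6306 and 5278. AT1G34300, a lectin receptor kinase gene, had 44.3% and 33.5%, and the TPR-like genes AT5G01110 and AT4G04370 had 33.6% and 45.4%, and 31.1% and 36.9%. With calls taken as independent, the intervals of the libraries do not overlap in any of the 6 genes. Ler-0 was above Col-0 in 4 and below it in 2, and none of the differences reached 20 points. CpG methylation of these genes was 46.7% to 65.1% in Col-0 and 43.2% to 68.3% in Ler-0.

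The 6 members with the highest CpHpG methylation at CpHpH of 10% or more in both libraries were 5 genes annotated as Ta11-like non-LTR retrotransposons, which copy themselves through RNA, and AT4G29090, a ribonuclease H-like gene. Their CpHpG methylation was between 70.0% and 80% in Col-0 and between 72.0% and 79.1% in Ler-0. AT2G41590 at chr2:17343360-17345005 had 76.1% (74.7–77.5%, 3677 calls) and 79.1% (77.7–80.5%, 3133 calls), with 14 of 14 CpCpG sites methylated at both cytosines in each library. It overlaps another annotated gene. AT2G16676 had 73.9% and 75.2%, and AT4G29090 71.8% and 72.0%, with overlapping intervals for both genes. AT5G18636 was the only one of the 6 with a lower level in Ler-0, 80% (77.8–82.0%) against 75.1% (73.2–76.8%), and AT2G13450 had 70.3% against 77.4% and AT2G02103 70.0% against 75.3%. AT5G18636 and AT2G02103 were placed at the same Ler-0 sequence, so that their Ler-0 levels rest largely on the same calls and their opposite directions follow their Col-0 levels. CpG methylation was 85.4% to 90.9% in Col-0 and 92.3% to 95.3% in Ler-0, and CpHpH methylation 21.3% to 31.7% and 15.7% to 25%.

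The opposite case, CpG methylation of 30% or more in both libraries with the least CpHpG methylation, is shown by AT5G15010, a TPR-like gene at chr5:4857147-4859125 on the plus strand. It had 52.1% CpG methylation in Col-0 and 58.4% in Ler-0, but 2.11% (1.44–3.07%, 1235 calls) and 1.5% (0.924–2.42%, 1068 calls) CpHpG methylation. Internal cytosines were methylated at 4 of 9 of its CpCpG sites in Col-0 and at 6 of 10 in Ler-0, and the external cytosine at 1 and 0 of these. AT5G28210, an mRNA capping enzyme gene, had 10 CpmCpG and 0 mCpmCpG among 25 sites in Col-0, and AT3G55550, a lectin receptor kinase gene, had 15 CpmCpG and 0 mCpmCpG among 31. Their CpHpG methylation was 2.53% and 2.97% in Col-0 and 2.34% and 3.57% in Ler-0. AT2G01870, AT1G43630 and *DMP1* (AT3G21520), which encodes a membrane protein, had 1.68% to 3.12% in Col-0 and 2.10% to 3.40% in Ler-0. *DMP1* lies in the stretch of chromosome 3 with few Ler-0-specific reads, and AT5G28210, AT2G01870 and *DMP1* overlap another annotated gene. The depth of the 6 genes per CpHpG cytosine was 6.04 to 14.3 reads for Col-0 and 6.17 to 10.6 for Ler-0.

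To ask whether genes without introns differ from genes with many, each member was set beside an unused gene with 5 or more exons in every model and a length within 10%. Such a gene was found for 1933 members, and 1425, mostly short ones, had none. The paired members had a median length of 1779 bp against 1875 bp, and 110 against 111 CpHpG cytosines. CpG methylation of 10% or more was measured in 30.8% of the paired members and 42.0% of the contrast genes in Col-0, a difference of -11.2 points (Newcombe interval -14.2 to -8.15). In Ler-0, 1847 of the paired members and 1770 of the contrast genes had a place and enough reads, whether or not their partner did. The shares there were 27.1% and 39.5% (-12.5 points, -15.5 to -9.42). CpHpG methylation of 20% or more was measured in 4.86% and 6.73% in Col-0 (-1.86 points, -3.35 to -0.388) and in 5.36% and 8.08% in Ler-0 (-2.72 points, -4.37 to -1.09). Among the genes with at least 10% CpG methylation, the shares were 15.8% and 16.0% in Col-0 (-0.231 points, -4.05 to 3.71) and 19.8% and 20.4% in Ler-0 (-0.629 points, -5.16 to 4.04). Among genes with CpG methylation, no difference in CpHpG methylation was detectable in these pairs, but the value depended on how the sets were formed. It was -14.4 points (Col-0) and -10.3 (Ler-0) with length classes of 200 bp and -4.48 and -12.1 at 8 reads or more. With matching on exonic length it was 5.91 points in Col-0, and with matching on length and CpG level 5.30 in Ler-0. The paired members were more deeply read than the contrast genes, with medians of 9.37 and 7.89 reads in Col-0 and 7.72 and 6.55 in Ler-0, and the part of this in the differences was not tested.

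The difference in CpHpG methylation varied with length. Single-exon genes were lower in the classes under 1600 bp and in the open class from 3000 bp. In that open class members reached 4636 bp and genes of 5 or more exons 27265 bp. From 800 to 999 bp, 5.30% of 642 members and 8 of only 22 contrast genes were at 20% CpHpG methylation in Col-0, and from 1200 to 1399 bp it was 5.95% of the members and 18 of 117 contrast genes. From 1600 to 1799 bp the shares were 3.78% and 3.92%, and from 2200 to 2399 bp 5.07% and 5.05%. From 2600 to 2799 bp they were 8.70% and 6.73%, with overlapping intervals. From 3000 bp, an open class in which length was not matched, they were 12.2% (6.76–21.0%) and 23.4% (22.3–24.5%), and in Ler-0 they were 16.7% and 36.8% (35.5–38.1%), with an upper bound of 26.5% for the members. When classes of 200 bp were weighted to the members, the difference was -9.54 points in Col-0 and -7.69 in Ler-0 with all classes, but -0.0156 and -0.0808 points with the classes from 1600 bp, a setting chosen after the data had been seen. CpG methylation of 10% or more differed over more of the range. It was measured in 13.9% of members and 50% of contrast genes from 800 to 999 bp in Col-0, in 33.6% and 49.0% from 2000 to 2199 bp and in 61.0% and 79.3% from 3000 bp. At 8 reads or more per CpHpG cytosine, where fewer genes remained, the difference in CpHpG methylation was -5.94 points in Col-0 and -17.7 in Ler-0.

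**Figure D3:**
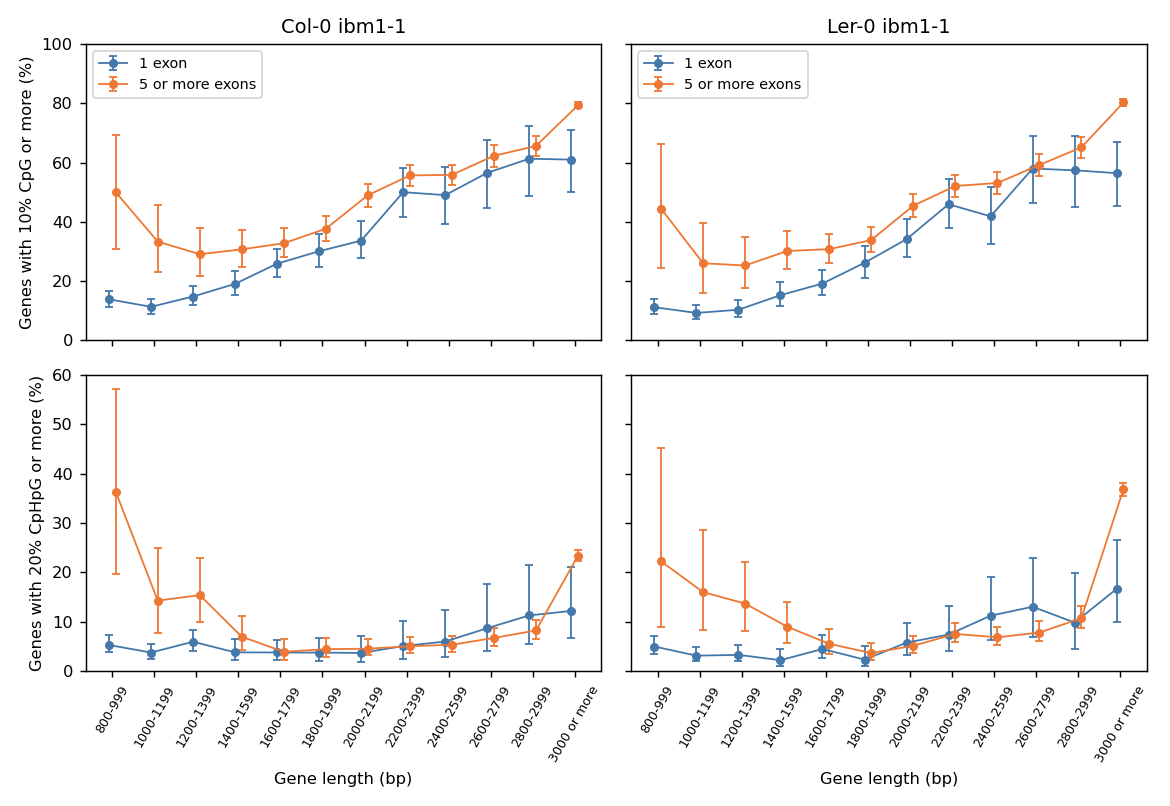
Share of genes (percent) with 10% CpG methylation or more (top) and 20% CpHpG methylation or more (bottom) by gene length in bp, for genes of 1 exon and of 5 or more exons in Col-0 and Ler-0 *ibm1-1*, with 95% Wilson intervals. In the bottom panels the sets lie apart under 1400 bp, where contrast genes are few (22 from 800 to 999 bp in Col-0), and again from 3000 bp, and have overlapping intervals from 1600 to 2999 bp.

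Among the members themselves, the longest had both CpG and CpHpG methylation most often. CpG methylation of 10% or more was measured in 12.6% of members under 1200 bp in Col-0 and in 58.0% of those of 2500 bp or more, and in Ler-0 in 10.2% and 54.7%. CpHpG methylation of 20% or more was measured in 4.55% and 9.85% of the same classes in Col-0, and in 47 of 1154 and 36 of 258 members in Ler-0. Of the members with that CpG level, 36.1% of the shortest, 10.9% of those from 2000 to under 2500 bp and 17.0% of the longest had 20% CpHpG methylation in Col-0. In Ler-0 these shares were 39.8%, 16.4% and 25.5%.

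**Figure D4:**
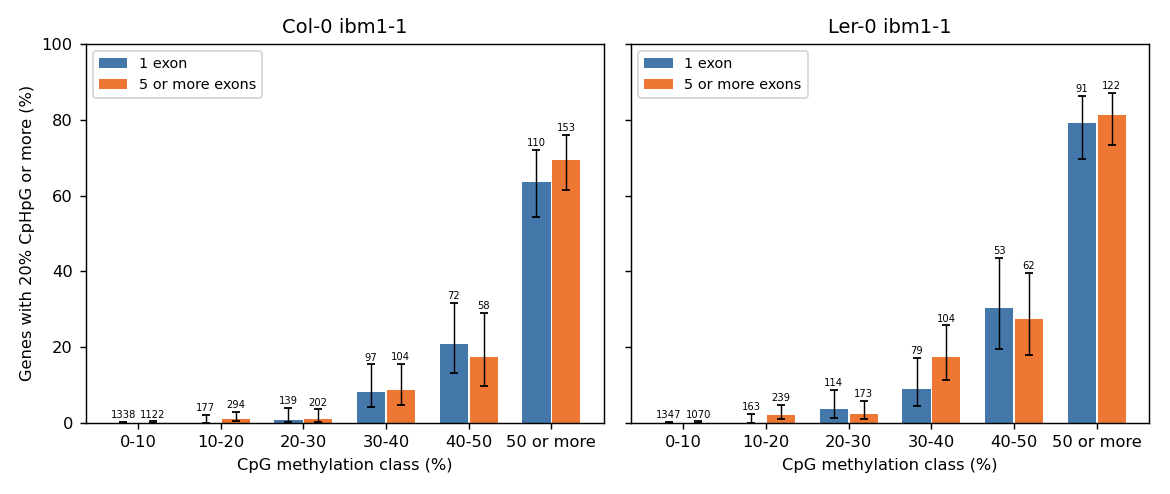
Share of genes (percent) with 20% CpHpG methylation or more by class of CpG methylation (percent), for paired single-exon genes and length-matched genes of 5 or more exons in Col-0 and Ler-0 *ibm1-1*, with 95% Wilson intervals and the number of genes above each bar. In the class of 50% CpG or more the shares are 63.6% and 69.3% in Col-0 and 79.1% and 81.1% in Ler-0, and the intervals of both sets overlap in every class.

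The 3163 members present in both libraries were then compared gene by gene. CpHpG methylation of 20% or more was measured in both libraries in 88 members, in Col-0 alone in 43 and in Ler-0 alone in 63. That is 2.78%, 1.36% and 1.99% of the members, against 7.81%, 2.22% and 6.42% of all genes. The 88 are 67.2% (58.7–74.6%) of the 131 members called for Col-0 and 58.3% (50.3–65.8%) of the 151 called for Ler-0, where all genes had 77.9% and 54.9%. CpG methylation of 10% or more was shared by 532 members, with 195 in Col-0 alone and 105 in Ler-0 alone. These counts are 16.8%, 6.17% and 3.32% of the members, against 40.9%, 6.93% and 4.66% of all genes. In the 532 members the median CpHpG methylation was 6.23% (Col-0) and 6.84% (Ler-0), and 293 of them (55.1%, 50.8–59.2%) were higher in Ler-0. Over all protein-coding genes chosen the same way, the medians were 7.81% and 11.9% and the share was 67.3%. The 21 members with at least 10% CpHpH methylation in both libraries had median CpHpG levels of 63.5% and 65.9%, and 20 of them (95.2%) were at 20% or more in both, against 96.9% of all genes with that CpHpH level.

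A member was called different when Fisher's exact test on its methylated and unmethylated CpHpG calls gave an adjusted p under 0.01 (Benjamini-Hochberg over 22470 genes) and the levels differed by at least 20 points. The test compares these 2 libraries and not the ecotypes. It takes calls from the same read as independent, so its p-values may be too small. By this rule 35 members were higher in Ler-0 (1.11%) and 22 were higher in Col-0 (0.696%), while 2.81% and 0.699% of all genes were. The adjusted p alone was under 0.01 in 396 members (12.5%), against 31.1% of all genes. In the 35 members the medians were 4.86% CpHpG in Col-0 and 39.3% in Ler-0, with 33.3% and 64.4% CpG and 1.21% and 4.66% CpHpH methylation. In the 22 members they were 33.3% and 4.50% CpHpG, 85.3% and 13.1% CpG and 6.32% and 1.36% CpHpH methylation. CpG methylation was under 10% in the library with the lower CpHpG level in 14 of the 35 (40%) and in 7 of the 22 (31.8%), against 11.9% and 37.6% of all genes called in these directions, and it was 10% or more in both libraries in the other 21 and 15. Depth moved with the direction of the difference. The ratio of Ler-0 to Col-0 reads per CpHpG cytosine had a median of 1.28 in the 35 members, all of which were above 1, of 0.565 in the 22, 1 of which was above 1, and of 0.818 in the 3022 members with neither a call nor 20% in both libraries. The part of depth in the calls was not tested.

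**Figure D5:**
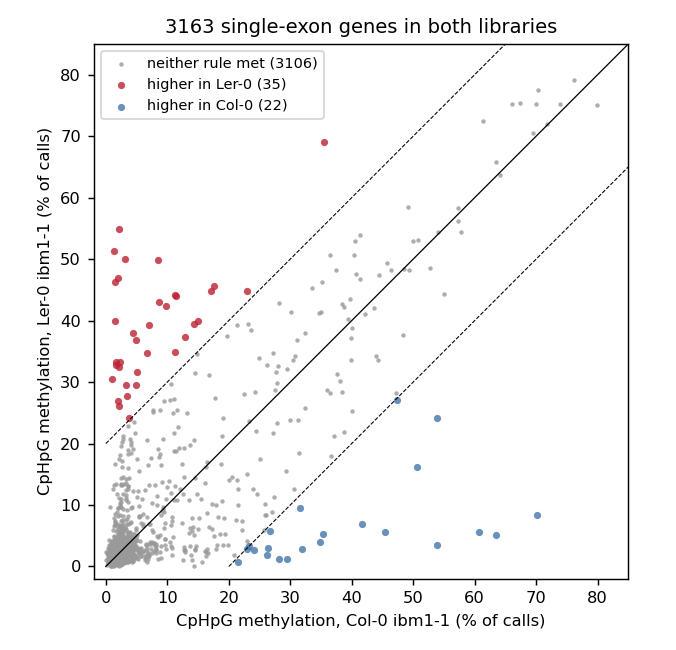
CpHpG methylation (percent of calls) of the 3163 single-exon genes in Ler-0 *ibm1-1* (vertical axis) against Col-0 *ibm1-1* (horizontal axis), with the line of equality and dashed lines at differences of 20 points. The 35 genes higher in Ler-0 have medians of 4.86% (Col-0) and 39.3% (Ler-0), and the 22 higher in Col-0 have medians of 33.3% and 4.50%.

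Among the members higher in Ler-0, *AGP6* had the largest difference. It encodes an arabinogalactan protein of pollen and lies at chr5:4635644-4636676 on the minus strand. Its CpHpG methylation was 2.07% in Col-0 (1.13–3.76%, 484 calls) and 55.0% in Ler-0 (52.1–57.8%, 1144 calls, Fisher's exact test, adjusted p = 2.11e-110). CpG methylation was 1.84% and 95.4% and CpHpH methylation 1.13% and 6.42%, so that all 3 contexts differed over the gene. Of its CpCpG sites with enough reads, 0 of 8 (Col-0) and 22 of 22 (Ler-0) had a methylated internal cytosine, and its depth was 7.33 and 17.3 reads. AT3G44710, with a DUF247 domain, had 1.27% and 51.3%, and *CYP96A8* (AT1G47620), a cytochrome P450 gene, had 3.11% and 50.1%. AT5G61660, a glycine-rich protein gene that overlaps another gene, had 2.04% and 46.9%, and AT2G04810, an F-box gene, had 1.5% and 46.2%. CpG methylation of these 4 genes was 3.34% to 8.14% in Col-0 and 68.6% to 93.5% in Ler-0. AT5G55800, a gene with a cysteine and histidine-rich C1 domain, had 8.50% and 49.9%, next to 1.15% and 58.5% CpG methylation. In Col-0 its CpHpG level was thus above its CpG level.

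Of the members higher in Col-0, *UGT73C1*, a UDP-glycosyltransferase gene of the group that attaches glucose to small molecules, lies at chr2:15410376-15412064 on the minus strand. It had 53.8% CpHpG methylation in Col-0 (51.7–56.0%, 2073 calls) and 3.50% in Ler-0 (2.42–5.05%, 771 calls, Fisher's exact test, adjusted p = 1.09e-159), with 90.3% and 9.08% CpG methylation and 24.4 and 9.07 reads. The external and internal cytosines were both methylated at 14 of 23 CpCpG sites in Col-0 and at 0 of 14 in Ler-0. AT4G10613, a reverse transcriptase-related gene, had 60.7% and 5.62%, and AT1G67450, an F-box gene, had 41.7% and 6.85%. AT5G35370, an S-locus lectin receptor kinase gene that overlaps another gene, had 34.8% and 3.93%, and of these genes it kept the most CpG methylation in Ler-0, 31.4% against 70.6%. Its internal cytosines were methylated at 31 of 62 sites in Col-0 and at 11 of 48 in Ler-0, with 17 and 0 of them methylated at the external cytosine. The uncharacterized genes AT2G40955 (63.5% and 5.07%) and AT4G15096 (45.4% and 5.57%) were placed at the same Ler-0 sequence, so that their Ler-0 levels rest largely on the same calls. In all, 28 members shared a Ler-0 place with another gene, and without them 35 members were higher in Ler-0 and 20 higher in Col-0.

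Families differed in how often their single-exon members carried methylation. They were formed by words in the product names, and for 3 of them (TPR-like, C1 domain and transposon-related) the words were chosen after the names had been read. Of 141 PPR genes, 120 had 10% CpG methylation or more in Col-0 (85.1%) and 16 had 20% CpHpG methylation, 14 of these with CpHpH under 5%. In Ler-0 the numbers were 113 and 21 of 140. The median CpG and CpHpG levels of the PPR genes were 25.6% and 3.62% in Col-0 and 26.4% and 4.94% in Ler-0, and 6 of them were called higher in Ler-0, with no call in the other direction, while among all PPR genes 2 were higher in Col-0 and 17 were lower there. The TPR-like genes were close to them, with 83 of 111 genes at 10% CpG and 12 at 20% CpHpG methylation in Col-0, and 76 and 15 in Ler-0. In Col-0 these are 74.8% and 10.8%, against 73.9% and 13.4% of all TPR-like genes. For Ler-0 they are 68.5% and 13.5%, against 73.2% and 20.8%. At the other end, 1 of 83 single-exon AP2/ERF transcription factor genes, many of which respond to ethylene or stress, reached 10% CpG methylation (Col-0). For Ler-0 0 of 80 did, and the highest CpHpG level of these single-exon genes was 3.76% (Col-0) and 3.8% (Ler-0). Over all AP2/ERF genes, 34 of 199 had 10% CpG methylation and 3 had 20% CpHpG methylation in Col-0. For Ler-0 these numbers were 31 and 9 of 189. Over all PPR genes of any exon number, 83.8% of 265 had 10% CpG methylation and 10.6% had 20% CpHpG methylation in Col-0, against 85.1% and 11.3% of the single-exon ones. In Ler-0 these shares were 82.5% and 21.7% over all and 80.7% and 15% over the single-exon genes.

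F-box genes numbered 212 among the members. In Col-0, 65 had 10% CpG methylation and 22 had 20% CpHpG methylation, 8 of which had at least 10% CpHpH methylation, and in Ler-0 47 and 13 of 196 did. Over all F-box genes, 211 and 50 of 573 were at these CpG and CpHpG levels in Col-0, and 164 and 39 of 516 in Ler-0. The single-exon F-box genes were higher in Col-0 in 6 cases and higher in Ler-0 in 2, and over all F-box genes the numbers were 10 and 7. Of 121 protein kinase genes, 53 had 10% CpG and 7 had 20% CpHpG methylation in Col-0, and 34 and 7 of 119 did in Ler-0. In Col-0 these are 43.8% and 5.79%, against 58.8% and 10.2% of all protein kinase genes. For Ler-0 they are 28.6% and 5.88%, against 55.7% and 14.9%. Zinc finger genes, 86 in number, had 14 and 7 in Col-0, and 0 of these 7 had CpHpH under 5%, where it was 56 of 76 over all zinc finger genes. In Ler-0 9 and 8 of 80 did, and 3 of these 8 had CpHpH under 5%, where it was 65 of 87 over all. At 10% CpG and 20% CpHpG, all zinc finger genes numbered 242 and 76 of 480 in Col-0, and 232 and 87 of 453 in Ler-0. Of 58 UDP-glycosyltransferase genes, *UGT73C1* was the only one with 20% CpHpG methylation in Col-0, and none had it in Ler-0. Over all UDP-glycosyltransferase genes, 5 of 142 (Col-0) and 9 of 138 (Ler-0) had it. Of 387 uncharacterized genes, 64 were at 10% CpG and 26 at 20% CpHpG (Col-0), 13 of the 26 with at least 10% CpHpH methylation. For Ler-0 the counts were 49 and 17 of 348, 5 of the 17 at that CpHpH level. Uncharacterized genes of any exon number gave 665 and 267 of 1818 (Col-0) and 495 and 205 of 1538 (Ler-0). Among those 267 and 205 genes, 103 and 55 were at that CpHpH level. The Col-0 shares were 36.6% and 14.7% over all, against 16.5% and 6.72% of the single-exon ones. Of the 35 members with transposon-related products, 13 were polynucleotidyl transferase, ribonuclease H-like genes and 3 were ribonuclease H-like genes by name. Those names state no link to a transposon. All 14 genes of the 35 that had 10% CpG methylation in Col-0 were also at 20% CpHpG methylation with at least 10% CpHpH methylation. In Ler-0, 12 of 30 had 10% CpG methylation, 11 of these had 20% CpHpG methylation and 10 of these had at least 10% CpHpH methylation. Over genes of any exon number with such products, 86 of 133 had 10% CpG and 52 had 20% CpHpG methylation in Col-0. The C1 domain genes (99), pectinesterase genes (37), ribosomal genes (25), resistance genes of the NBS-LRR kind (13) and subtilase genes (7) held 4, 2, 1, 1 and 0 genes with 20% CpHpG methylation in Col-0. Over genes of any exon number, the same families held 7 of 143, 20 of 210, 6 of 370, 13 of 153 and 3 of 54.

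The members with 20% CpHpG methylation were spread over the chromosomes, with shares of 3.66% on chromosome 1, 7.25% on chromosome 2, 5.12% on chromosome 3, 4.82% on chromosome 4 and 4.68% on chromosome 5 in Col-0. In Ler-0 they were 3.50%, 5.83%, 5.24%, 5.32% and 4.73% in the same order. The stretch of chromosome 3 with few Ler-0-specific reads held 299 members, 2 of which were called, 1 in each direction. Of the 2864 members elsewhere, 34 were called higher in Ler-0 and 21 higher in Col-0. In the 58 members of the stretch with 10% CpG methylation in both libraries, the median CpHpG level was 8.06% (Col-0) and 6.63% (Ler-0), against 5.97% and 6.85% in the 474 members elsewhere. On either side of the length limit, of 332 single-exon genes of 700 to under 800 bp, 35 had 10% CpG and 15 had 20% CpHpG methylation in Col-0, and of 306 members of 800 to under 900 bp 47 and 18 did. At the depth limit, 3 of 30 genes with 3 to 4 reads and 3 of 60 members with 4 to 5 reads had 20% CpHpG methylation.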

How the data were processed

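The authors used Bismark to align the Col-0 reads against TAIR10 and the Ler-0 reads against a PacBio assembly of that accession, and collapsed duplicates. The submitters' processing notes also name Trimmomatic, and no version is given in the sources used here. The deposited values are raw counts of methylated and unmethylated calls per cytosine, without normalization.

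Exons, products and positions came from the RefSeq annotation of TAIR10, whose genome matched the Col-0 report. The Ler-0 sequence was rebuilt from the cytosines and their 2 following bases in the Ler-0 report, with unresolved A and T bases written as 1 symbol, and Col-0 genes were reduced in the same way. Genes were placed with bwa 0.7.19 at mapping quality 20, a score 20 above the next place and 80% of the gene aligned.

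The level of a gene was methylated over all calls, pooled over a context on both strands, introns included. Members, families and tests were chosen with earlier results of these data known. Shares have Wilson intervals, and differences of shares Newcombe intervals for independent sets, which do not use the pairing of genes by length. Genes are not replicates, and no p-value was calculated across genes. Fisher's exact test was two-sided. The steps were tested on simulated data. The genes named are the 6 of each list among members with at least 20 CpHpG cytosines of 5 reads in each library: highest CpHpG in the lower library with CpHpH under 5%, and with 10% or more, in both; largest called difference in each direction; and 30% CpG in both with the lowest CpHpG in the higher library.

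Alternatives covered depth, length, call levels, parts of the gene, matching, the aligner (minimap2 2.31), thinning of the Col-0 reads to 0.871, non-conversion and chromosome 3. WT, *met1* and *ibm1* libraries of generation 2 and the Ler-0 assembly were not used here. Python 3.11.15, numpy 2.4.6, scipy 1.17.1, pandas 2.3.3 and matplotlib 3.10.9 were used.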

Additional observations from a re-analysis of the deposited data

How the results depend on the processing

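Of the values recomputed under the settings chosen at the outset, 81 stayed near the value reported, 38 moved and 3 differences whose interval lay below 0 changed sign. The differences among genes at 10% CpG have intervals that span 0, took both signs and are not among the 3. With at least 8 reads per CpHpG cytosine, 397 single-exon genes had 10% CpG methylation in Ler-0 and 13 were higher in Col-0, and the difference from matched genes at 20% CpHpG was -5.94 points (Col-0) and -17.7 (Ler-0) (-4.48 and -12.1 among genes at 10% CpG). From 1200 bp, 109 members had 20% CpHpG methylation in Col-0. A CpHpG call at 10% gave 271 members in Col-0 and 249 in Ler-0, at 50% 37 and 27, and with CpHpH under 5% 68 and 82. The difference from matched genes in Col-0 reversed to 0.0517 points at the 50% call (-0.657 in Ler-0), and was -0.334 with CpHpH under 5% and -0.208 with a contrast of 10 or more exons. Matching on length and CpG level (1890 pairs) reversed it to 0.476 points (Col-0) and 0.463 (Ler-0), and gave 5.30 in Ler-0 among genes at 10% CpG. Among these genes, a contrast of 2 or more exons gave -5.78 in Ler-0 and matching on exonic length 5.91 in Col-0, and over all genes exonic length gave -7.84 in Ler-0. Classes of 200 bp gave -9.54 and -7.69 over all genes and -14.4 and -10.3 among genes at 10% CpG. Of the settings added after seeing the data, classes from 1600 bp gave -0.0156 and -0.0808, and 4.11 in Ler-0 among genes at 10% CpG, and 19 other values stayed near the value reported. A difference of 10 points called 102 members higher in Ler-0 and 74 in Col-0, and 40 points 6 and 4.

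An external cytosine at 50% gave 7.98% CpmCpG and 1.38% mCpmCpG in Col-0 and 6.73% and 1.04% in Ler-0. At least 3 reads gave 5.85% and 4.84% CpmCpG, and at least 10 reads 7.12% and 6.23% CpmCpG and 3.68% and 3.13% mCpmCpG. Of the values for the genes named, 140 stayed within their interval, 10 moved and 0 called differences changed sign. The causes were not tested. The libraries could not be paired, because each group has 1 library. The intervals cover counting error at the depth of each library, and without a second library no spread between plants is known.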
